A study of Schizosaccharomyces pombe with 4 samples.

Results

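The comparison described here sets the fission yeast library labelled clr4 deletion against the library labelled wild type, both from cells grown in the cold. It covers all 7015 annotated features of the deposited tables, of 7015 in all. For each feature, the value of the library labelled wild type was subtracted from that of the library labelled clr4 deletion. The cells were Schizosaccharomyces pombe, held for 3 days at 18 °C in logarithmic growth in YEA, a rich medium. The labels name the genotypes wild type and clr4[delta], plus swd22[delta] and ssu72[delta] as further mutants, and give no mating type, marker gene or strain background. Each genotype had 1 library of total RNA, from cells whose other alleles the labels do not give, so no difference below has a replicate check and no test of genotype exists. The series title asks about a role of the cleavage and polyadenylation factor (CPF) in heterochromatin, and deletion of clr4 is the mutant in which heterochromatin itself is lost.

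Clr4 is the histone H3 lysine 9 methyltransferase of fission yeast. It marks nucleosomes over the outer repeats of the centromeres, the subtelomeres and the silent mating-type region, and chromodomain proteins such as Swi6 bind the mark and keep transcription low. At the centromeres, noncoding RNAs of the repeats are cut by the RNA interference machinery, whose small RNAs guide the Clr4 complex back to the repeats. Cells without clr4 are known for transcripts from these repeats.

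Whole read numbers were recovered from the deposited ratios and p-values. The library labelled clr4 deletion held 22837419 reads over the features and that labelled wild type 15281348. The other mutant libraries held 19629262 (swd22) and 24003686 reads (ssu72), and an unnamed reference library shared by all 4 files held 22650493. A difference is the log2 ratio of clr4 to wild type after scaling for depth, and brackets hold its exact 95% counting interval. Such intervals cover counting error only, and without molecular identifiers several reads may come from 1 molecule. A feature counts as measured with at least 10 reads in the higher of both libraries. Reads of near-identical copies are uncertain wherever named, and so are overlapping genes, since the strand setting of the counting is not stated.

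The labels were checked first. The clr4 feature (chromosome II, 453996 to 458487, minus strand) gave 1645 reads for the library labelled clr4 deletion against 1158 for that labelled wild type, and the difference was -0.07 (-0.18 to 0.04). The other libraries held 1235 (swd22), 1445 (ssu72) and 1328 reads (reference). No loss of clr4 reads was therefore seen. The feature reaches beyond the coding part and overlaps the gene meu6 by 2446 bases, so reads outside a deleted part check nothing. In the libraries labelled for the other deletions the targeted genes were lower than elsewhere, with 281 reads of swd22 against 651 to 787 and 16 of ssu72 against 478 to 740. The library labelled wild type stood apart in other genes. It held 200 reads of swi6, 6 of the marker gene ura4 and 447 of the methionine synthesis gene met17, against at least 3601, 1732 and 5222 reads in each of the other 4 libraries. For that reason the reads of the other libraries stand beside many of the differences. A difference given without them does not show which library stood apart.

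A level at least 2-fold above that of the library labelled wild type was seen for 597 of 6442 measured features (9.27%) in the library labelled clr4 deletion, and one at least 2-fold below for 144 (2.24%). The median difference over all measured features was 0.02. Among 5056 protein-coding features, 273 (5.4%) were higher and 62 (1.23%) lower, and the counts of the gene lists below stand beside these shares. The other libraries show which side of a difference stood apart. Among the 597 higher features, the library labelled clr4 deletion was the highest of all 5 in 278, while that labelled wild type was the lowest in 357. Both held for 117 features and neither for 79. Among the 144 lower features, the library labelled wild type was the highest of the 5 in 118 and that labelled clr4 deletion the lowest in 37. With the unnamed reference as the control, 317 of the 597 (53.1%) were again at least 2-fold higher and 31 of the 144 (21.5%) again at least 2-fold lower. Over all 6466 features measured against that reference, 715 (11.1%) were higher and 203 (3.14%) lower.

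**Figure D1:**
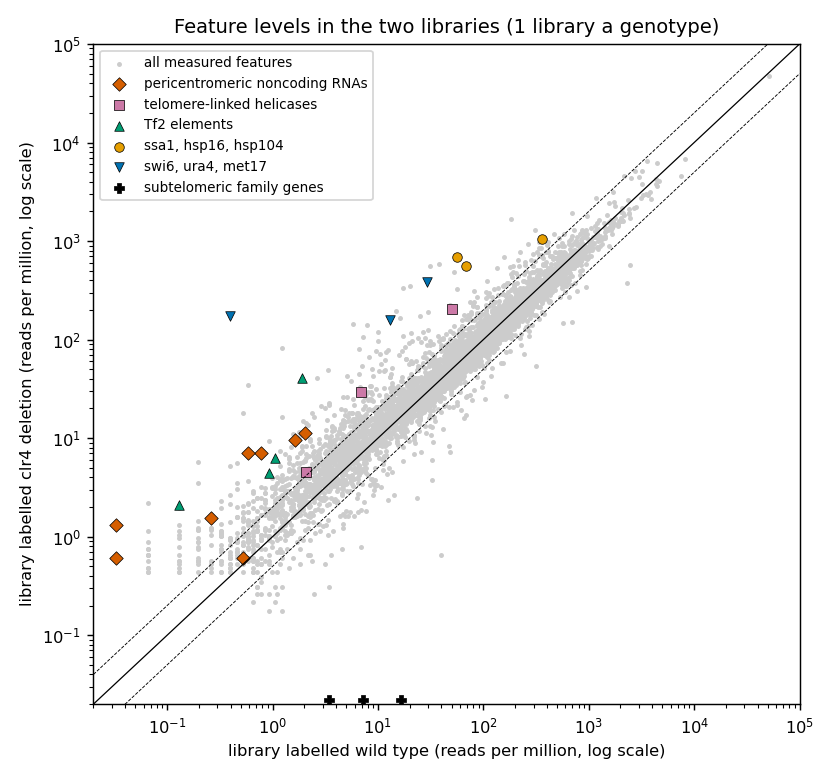
RPM in the library labelled wild type (horizontal, log scale) and in that labelled clr4 deletion (vertical, log scale) for each of 6442 measured features, with a solid line for equal levels and dashed lines for 2-fold. Pericentromeric RNAs, telomere-linked helicases, Tf2 elements and 3 heat shock genes lie above the lines except SPNCRNA.480, at 14 against 8 reads, and 3 subtelomeric family genes lie at the lower edge with at most 4 reads in the library labelled clr4 deletion.

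A narrower view keeps features in which the library labelled clr4 deletion lay at least 2-fold from every other library. With at least 30 reads in the highest library, 57 of 6308 features (0.904%) lay above all 4 others, of which 39 were protein-coding, 14 were noncoding RNAs of the SPNCRNA series, 3 were antisense features and 1 was a prl RNA. Only 5 (0.0793%) lay below all 4 others. By the same measure the library labelled wild type lay above all others in 51 features (0.808%) and below all others in 120 (1.9%). The library labelled wild type thus stood below the rest in more features than the library labelled clr4 deletion stood above it.

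Noncoding RNAs of the centromere repeats are the transcripts best known from cells without clr4, and 5 of them were among the 14 SPNCRNAs above. Stretches of 4 are printed because each holds bases that can and bases that cannot be told from another copy. Each was placed to hold as near to 120 capitals as its feature allowed. The share of capitals in a stretch is therefore not that of the feature. Each is 240 bases of the plus strand of the RefSeq assembly ASM294v3, 5′ to 3′, and capitals mark bases covered by a window of 50 bases that occurs once in the genome.
SPNCRNA.231, chrI:3761210-3761449: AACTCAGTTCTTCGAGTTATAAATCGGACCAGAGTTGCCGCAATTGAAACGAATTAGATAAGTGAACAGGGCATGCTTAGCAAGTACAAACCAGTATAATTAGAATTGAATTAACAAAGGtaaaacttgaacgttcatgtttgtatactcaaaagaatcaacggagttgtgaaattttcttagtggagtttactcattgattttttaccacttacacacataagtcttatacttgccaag
SPNCRNA.232, chrI:3763334-3763573: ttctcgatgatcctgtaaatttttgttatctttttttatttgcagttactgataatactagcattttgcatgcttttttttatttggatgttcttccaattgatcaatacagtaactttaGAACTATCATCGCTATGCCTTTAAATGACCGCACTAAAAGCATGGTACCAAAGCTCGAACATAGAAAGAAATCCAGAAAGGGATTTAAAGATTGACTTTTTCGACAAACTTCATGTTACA
SPNCRNA.359, chrII:1602940-1603179: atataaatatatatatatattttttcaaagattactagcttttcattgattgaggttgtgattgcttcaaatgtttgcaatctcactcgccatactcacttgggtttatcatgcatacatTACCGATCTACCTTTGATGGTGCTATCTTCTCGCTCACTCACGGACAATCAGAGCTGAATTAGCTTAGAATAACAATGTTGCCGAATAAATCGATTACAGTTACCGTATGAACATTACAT
SPNCRNA.373, chrII:1641081-1641320: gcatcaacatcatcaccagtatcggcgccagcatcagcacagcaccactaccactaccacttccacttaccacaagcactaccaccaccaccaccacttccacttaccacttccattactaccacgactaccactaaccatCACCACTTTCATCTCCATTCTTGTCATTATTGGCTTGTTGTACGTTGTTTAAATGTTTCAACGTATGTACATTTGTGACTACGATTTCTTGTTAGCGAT

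Over the whole feature, the share of 50-base windows found once in the genome was 17.6% for SPNCRNA.231, 7.77% for SPNCRNA.232, 30.01% for SPNCRNA.359 and 3.62% for SPNCRNA.373. The centromere windows of the 3 chromosomes, taken as the largest gap between coding genes, hold 87 features, of which 30 are SPNCRNAs, 2 are the boundary elements IRC1-L and IRC1-R, with no ratio, and 55 are tRNA genes. Most gave no reads. Of the 62 features with no ratio or 0 reads in every library, 57 had no window found once. Among the 18 with at least 10 reads in a library, the median share was 4.26% and 8 had no such window. How reads with several places were counted is not stated, so a feature at 0 says nothing of its transcripts where none of its bases can be told from another copy.

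The library labelled clr4 deletion held the most centromeric SPNCRNAs with reads. It held at least 10 reads in 8 of the 30 centromeric SPNCRNAs and was the highest of the 5 libraries in 7 of these 8. The 8 were picked by their reads in that same library, so the 7 of 8 leans towards it. The libraries labelled wild type, swd22 deletion and ssu72 deletion held at least 10 reads in 3, 2 and 2 of them, and the unnamed reference in 2. Summed over all 30, the level was 39.2 RPM (reads scaled to the library total) in clr4 against 5.37 in ssu72, 3.67 in swd22, 5.89 in wild type and 2.74 in the reference. The clr4 sum thus lay above each of the other 4.

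In centromere 1, SPNCRNA.231 (chromosome I, 3761023 to 3762114) held 9 reads in wild type, 0 in swd22, 5 in ssu72, 1 in the reference and 160 in clr4. The difference was 3.57 (2.61 to 4.73). SPNCRNA.232, which starts 750 bases further on the same strand, held 30 reads in clr4, 1 in the reference and 0 elsewhere. Against a floor of 3 reads in the library labelled wild type it was at least 6.69-fold higher. SPNCRNA.234 (chromosome I, 3786105 to 3787136), on the far side of the same centromere, held 25 reads in wild type, 4 in swd22, 4 in ssu72, 2 in the reference and 218 in clr4, a difference of 2.54 (1.94 to 3.20). No other library reached the clr4 level for any of these RNAs.

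In centromere 2, SPNCRNA.373 (chromosome II, 1640114 to 1641543) held 31 reads in wild type, 6 in swd22, 4 in ssu72, 4 in the reference and 256 in clr4, a difference of 2.47 (1.93 to 3.05). SPNCRNA.359 (chromosome II, 1602773 to 1604997) held 12, 30, 57, 32 and 160 reads in the same order, a difference of 3.16 (2.31 to 4.14). The second of these was the less empty in the other libraries, and its clr4 level was 1.56 (log2) above the next library. SPNCRNA.364 held 14 reads in clr4, 0 in the reference and at most 4 in each of the remaining libraries. SPNCRNA.366 stayed below the read minimum, with 8 reads in clr4 and at most 4 in every other library.

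In centromere 3 no SPNCRNA was highest in clr4 by 2-fold. SPNCRNA.1172 (chromosome III, 1068597 to 1069142) was 2.55 (1.07 to 4.50) higher than wild type, at 35 against 4 reads. With 25 reads in swd22 and 51 in ssu72 it was not the highest there, and the low library was that labelled wild type. The neighbouring SPNCRNA.480 held 14 reads against 8, a difference of 0.23 (-1.13 to 1.69). No measured centromeric tRNA gene was at least 2-fold higher, though SPATRNAPHE.02 of centromere 1 held 13 reads in clr4 against 5 in wild type. SPCTRNAASP.05 held 136 reads against 500, a difference of -2.46 (-2.74 to -2.18), with 88 in swd22, 145 in ssu72 and 350 in the reference. The 16 measured centromeric features had 7 higher, 3 lower and a median of 0.51, where the 7 were all SPNCRNAs and the 3 all tRNA genes. Of the 7, SPNCRNA.231, SPNCRNA.232, SPNCRNA.364 and SPNCRNA.1172 reached the read minimum in clr4 and not in wild type. They could not have come out lower.

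**Figure D2:**
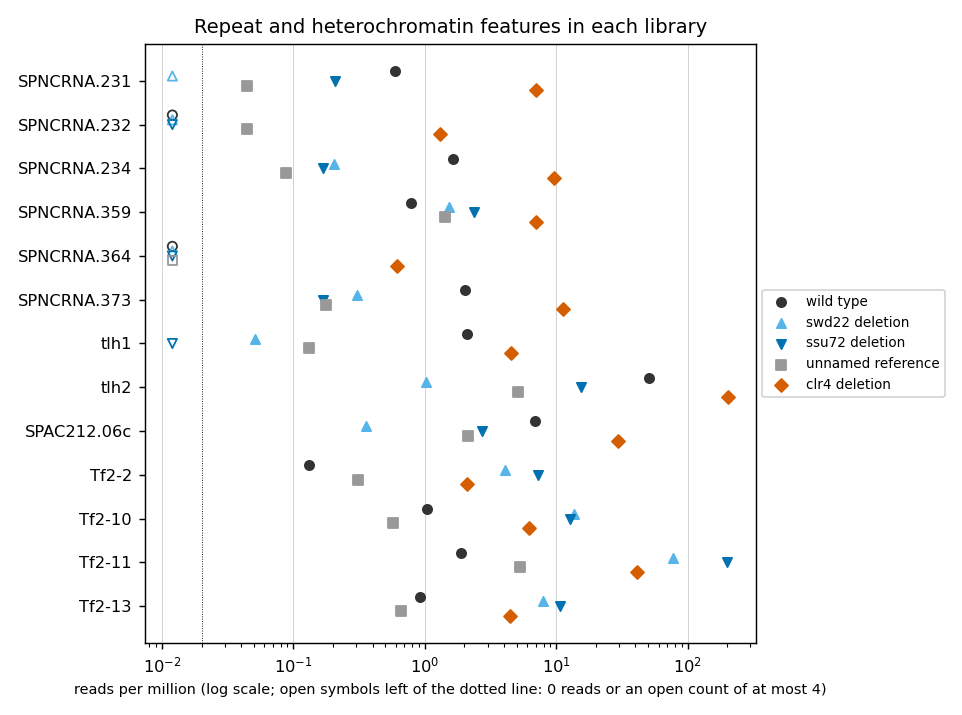
RPM (log scale) of pericentromeric RNAs, telomere-linked helicases and measured Tf2 elements in each of the 5 libraries, with open symbols for 0 reads or an open count of at most 4. The library labelled clr4 deletion is rightmost for all the pericentromeric RNAs and helicases shown, whereas for the Tf2 elements the libraries labelled swd22 and ssu72 deletion lie to its right.

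The telomere-linked helicase genes, which sit at the chromosome ends and share sequence with the centromere repeats, were all higher. At the end of chromosome II, tlh2 (4526885 to 4532899) held 771 reads in wild type, 20 in swd22, 370 in ssu72, 115 in the reference and 4618 in clr4, a difference of 2.003 (1.89 to 2.11). The truncated helicase SPAC212.06c (chromosome I, 18042 to 18974) held 105, 7, 65, 48 and 668 reads, a difference of 2.09 (1.79 to 2.40). For tlh1, at the first base of chromosome I, the numbers were 32, 1, 0, 3 and 103, a difference of 1.11 (0.52 to 1.73). In all 3 genes clr4 was highest and wild type second. The share of windows found once was 0.89% for tlh1, 6.75% for tlh2 and 20.36% for SPAC212.06c. Their reads may therefore be shared among copies, and the 3 are not separate observations. Against the unnamed reference the differences were 5.32 for tlh2, 3.79 for SPAC212.06c and 5.09 for tlh1.

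The remaining subtelomeric features did not share the direction of the helicases against wild type. Within 50 kb of an end of chromosome I or II, 39 of 76 features other than the helicases were measured, of which 8 were higher and 16 lower, around a median of -0.25. With the helicases included the median was 0.06. Over all measured features 9.27% were higher and 2.24% lower. From 50 to 100 kb, 84 of 103 subtelomeric features were measured, of which 28 were higher and 6 lower, around a median of 0.59. The lower ones gathered between 25 and 50 kb, where 13 of 25 were at least 2-fold lower and the median was -1.09. Against the unnamed reference the picture changed. All 15 features measured within 25 kb, the 3 helicases included, were at least 2-fold higher there, with a median of 5.32, and 18 of 22 from 25 to 50 kb, with a median of 2.76. Several in both bins passed the read minimum through clr4 alone, among them SPBCPT2R1.07c (728 reads against 3) and pdc102 (114 against 3). Such features could not come out lower, so these counts lean towards higher by the choice of features. Beyond 100 kb the medians were -0.01 over 99 features and 0.10 over 115.

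Several subtelomeric genes with reads in clr4 also had them in wild type. Of coding features within 50 kb, SPAC186.05c held 5298 reads in clr4, 3543 in swd22, 2408 in wild type, 157 in ssu72 and 445 in the reference, a difference of 0.56 (0.49 to 0.63). SPAC750.01, an aldo-keto reductase family gene on the right arm of chromosome I (5555716 to 5556768), held 274 reads in wild type, 103 in swd22, 288 in ssu72, 12 in the reference and 1930 in clr4, a difference of 2.24 (2.05 to 2.42). Nearer the same end, SPAC750.05c held 239, 6, 7, 5 and 750, a difference of 1.07 (0.86 to 1.29). SPAC212.09c, near tlh1, held 57 reads in wild type and 94 in clr4, with at most 4 in each other library, and a difference of 0.14 (-0.35 to 0.64). At the other end, SPBCPT2R1.07c near tlh2 held 249 and 728 reads in wild type and clr4 against 1 to 3 in the rest, with a difference of 0.97 (0.76 to 1.18). For SPAC750.01, SPAC750.05c, SPAC212.09c and SPBCPT2R1.07c, the library labelled wild type thus lay closer to the clr4 level than the other mutants and the reference did. For SPAC186.05c the swd22 library lay closer after scaling for depth.

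The lowest coding features were 3 subtelomeric genes annotated as a conserved fungal family. SPAC977.05c (chromosome I, 35768 to 36382) held 254 reads in wild type, 5 in swd22 and at most 4 in clr4 and ssu72. SPBC1348.06c (chromosome II, 15981 to 16592) held 111 reads and SPBPB2B2.15 (chromosome II, 4496373 to 4496984) 53 reads in wild type, with at most 4 in each other library. No library other than that labelled wild type held more than 5 reads of any of them, and no fold is given against an open count. They lay in the runs of lower neighbours at 31140 to 41770 on chromosome I, at 15981 to 21754 on chromosome II and at 4492580 to 4503664 on chromosome II.

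**Figure D3:**
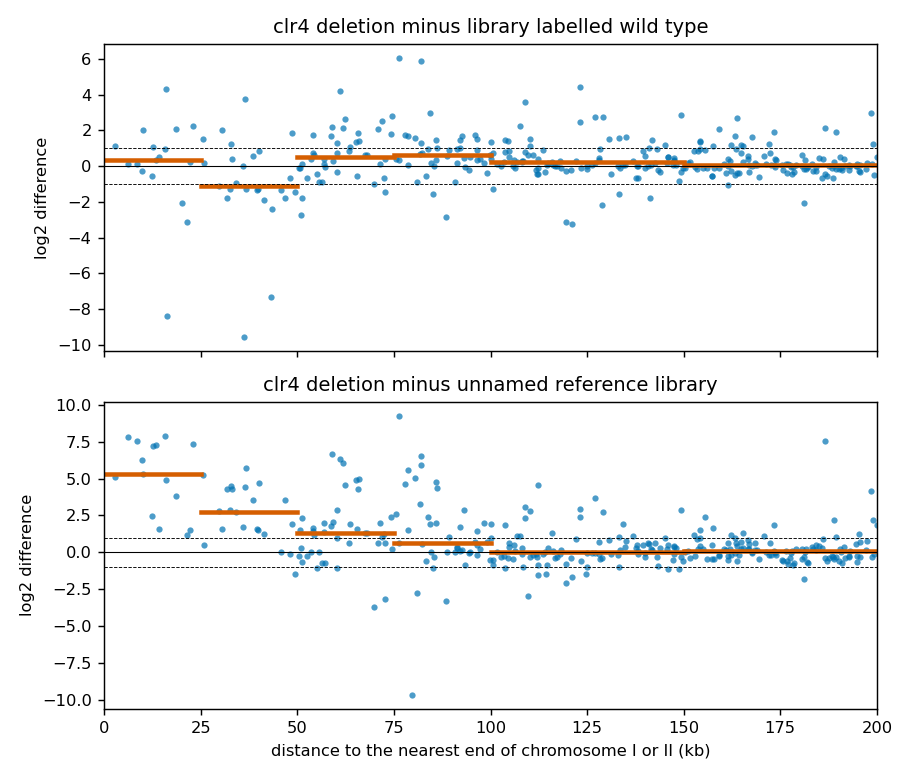
Log2 difference of measured features by distance to the nearest end of chromosome I or II (kb), for clr4 against the library labelled wild type (upper) and against the unnamed reference (lower), with bars for the median of each distance bin. Against wild type the bin from 25 to 50 kb lies lowest, at -1.09, whereas against the reference the medians descend from 5.32 in the first 25 kb to -0.01 from 100 to 150 kb.

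The silent mating-type region, the third large block of heterochromatin, could not be read. All 8 of its features are listed at a ratio of 0 throughout, so each library may hold up to 4 reads of them. Elements of the Tf2 retrotransposon were measured in 4 of 13 cases, and all 4 were higher. Tf2-11 (chromosome II, 4414657 to 4418658) held 29 reads in wild type, 1513 in swd22, 4740 in ssu72, 120 in the reference and 934 in clr4, a difference of 4.43 (3.90 to 5.02). For Tf2-2 the numbers were 2, 80, 174, 7 and 48, a difference of 4.01 (2.07 to 7.09), for Tf2-10 16, 266, 308, 13 and 142, at 2.57 (1.82 to 3.42), and for Tf2-13 14, 156, 256, 15 and 101, at 2.27 (1.46 to 3.19). The other mutants lay above clr4 in all 4, so that the elements separated all 3 mutant libraries from wild type and the reference. The 4 measured elements had 1.24% to 9.06% of windows found once in the genome, while 8 of the 9 unmeasured ones had none. Their reads may therefore be shared among copies, and the 4 are not separate observations. Tf2-2 reached the read minimum in clr4 and not in wild type, so it could not have come out lower.

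The machinery that builds heterochromatin was close to level, with the exception of swi6. In the Clr4 complex none of 6 genes differed 2-fold, and the median was -0.07. The cullin gene pcu4 stood at -0.24 (-0.33 to -0.15) and raf2 at 0.29 (0.16 to 0.42). RNA interference genes had none of 11 past 2-fold and a median of 0.18. Dicer (dcr1), at 1118 against 2625 reads, had the largest difference among them, 0.65 (0.55 to 0.75), while it lay at -0.10 against the reference. The 13 genes of SHREC and other deacetylases had a median of -0.22 and none past 2-fold, with the deacetylase gene clr3 at -0.07 (-0.14 to 0.01). Among 13 chromodomain and anti-silencing genes, swi6 (chromosome I, 1702406 to 1704073) was the only one past 2-fold. It held 200 reads in wild type, 3631 in swd22, 3729 in ssu72, 4431 in the reference and 3601 in clr4. The difference of 3.59 (3.38 to 3.80) turned to -0.31 against the reference, so the low library was that labelled wild type. The chromodomain gene chp1 and the anti-silencing gene epe1 stood at -0.25 and -0.01.

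RNA processing genes were level as well. None of 18 CPF and termination genes differed 2-fold, with a median of -0.21, swd22 at -0.38 (-0.53 to -0.23) and ssu72 at -0.56 (-0.75 to -0.38). None of 15 genes of RNA elimination and the exosome differed 2-fold either, with a median of -0.15. Of 14 meiotic genes whose RNA is removed in growing cells through the binding protein Mmi1, meu32 alone was past 2-fold, at 54 against 203 reads and 1.33 (0.89 to 1.79), with 300 in ssu72. The median of that list was 0.23, and mei4, its best known member, stood at -0.40 (-0.61 to -0.18). Histone genes had a median of 0.07 and none of 11 past 2-fold.

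The heat shock genes ssa1 and hsp16 were the coding genes in which clr4 stood farthest above every other library. The Hsp70 gene ssa1 (chromosome I, 2295580 to 2297981, minus strand) held 855 reads in wild type, 1364 in swd22, 1974 in ssu72, 1731 in the reference and 15681 in clr4, a difference of 3.62 (3.52 to 3.72). The small heat shock protein gene hsp16 (chromosome II, 2660139 to 2660992) held 1041, 1046, 1296, 1968 and 12765 reads, a difference of 3.04 (2.95 to 3.13). For the disaggregase gene hsp104 the numbers were 5464, 5805, 8542, 7169 and 23816, a difference of 1.54 (1.50 to 1.59). In each of these 3 genes clr4 lay at least 1.54 (log2) above the nearest of the 4 other libraries. Noncoding neighbours shared the pattern. SPNCRNA.1540, 38 bases from hsp16 on the same strand, held 50 reads in clr4 and 1 to 10 elsewhere, and SPNCRNA.811, which overlaps ssa1 by 162 bases on the other strand, held 52 and 3 to 9.

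Few other chaperone genes passed 2-fold. Of 77 genes that the annotation describes as heat shock proteins or chaperones, 9 (11.7%) were higher and none lower, with a median of 0.18 and of -0.07 against the reference. Over all protein-coding features 5.4% were higher and the median was -0.03. Besides the 3 above these were the glyoxalase genes hsp3101, at 2.15 (2.003 to 2.31), and hsp3102, at 2.87 (2.43 to 3.35), the mitochondrial hsp78 at 1.54 (1.49 to 1.60), the Hsp70 exchange factor gene fes1 at 1.33 (1.25 to 1.41), the DnaJ gene psi1 at 1.15 and tbc1 at 1.12 (0.87 to 1.36). Abundant chaperones differed less. The Hsp70 gene ssa2 stood at 0.89 (0.88 to 0.91) and hsp90 at 0.92 (0.90 to 0.94), and stood at -0.02 and -0.75 against the reference.

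The 300 bases before the ssa1 feature are printed because they hold the only match to a 3-block heat shock element among the 9 higher genes. They run 5′ to 3′ on the minus strand of ASM294v3, and capitals mark the match, which starts 41 bases before the feature.
ssa1 upstream, chrI:2297982-2298281: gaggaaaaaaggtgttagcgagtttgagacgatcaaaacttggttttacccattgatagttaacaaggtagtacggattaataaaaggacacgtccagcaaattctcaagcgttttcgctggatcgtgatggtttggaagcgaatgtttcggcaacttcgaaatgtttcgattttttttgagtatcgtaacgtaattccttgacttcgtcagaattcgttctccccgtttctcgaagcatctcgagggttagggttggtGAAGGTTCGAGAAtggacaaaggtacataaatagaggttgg
The element was searched as GAANNTTCNNGAA and, for the other strand, TTCNNGAANNTTC. It occurs in 17 of 5123 upstream windows of the same length (0.332%). The share was near that in genes higher than wild type, at 1 of 268 windows (0.373%), and 2 of the 77 chaperone windows (2.6%) held it. Of coding genes in which clr4 stood at least 2-fold above all other libraries, 1 of 38 windows (2.63%) held it, that of ssa1 itself. The windows of hsp16 and hsp104 held no match. A match is a string in a window and not a measured site.

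The list of 17 stress and osmoprotection genes shares ssa1, hsp16, hsp104 and other chaperone genes with the account above. Of its 10 genes that are no chaperone or heat shock gene, 2 were higher and none lower, with a median of 0.47. Over coding features the shares were 5.4% and 1.23%. The potassium-exporting ATPase gene cta3 held 285 reads in wild type, 417 in swd22, 768 in ssu72, 113 in the reference and 1454 in clr4, at 1.77 (1.59 to 1.96). The phosphatase gene pyp2, which acts on the stress kinase Sty1, stood at 1.06 (0.98 to 1.14), with 5102 reads in clr4 and 495 to 1637 elsewhere. In the kinase route itself, the kinase genes sty1 and wis1 stood at -0.44 (-0.49 to -0.38) and -0.63 (-0.70 to -0.57). The genes of the transcription factors Atf1 and Pcr1 stood at 0.56 (0.50 to 0.63) for atf1 and 0.39 (0.30 to 0.47) for pcr1.

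Of 16 antioxidant genes, 4 were higher and none lower, beside 5.4% and 1.23% of coding features. Their median was 0.52. The glutathione transferase gene gst2 held 2788 reads in wild type, 38564 in swd22, 59361 in ssu72, 4282 in the reference and 38561 in clr4, a difference of 3.21 (3.15 to 3.27). The sulfiredoxin gene srx1 was at 2.21 (2.04 to 2.39), with 304, 2478, 4417, 165 and 2107 reads. Both were low in wild type and the reference and high in every mutant. The superoxide dismutase gene sod1, at 1.13 (1.07 to 1.20), turned to -0.86 against the reference.

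Genes of sugar uptake and of metabolism repressed by glucose were in part higher, several of them above every other library. Of 8 hexose transporter genes, 4 were higher and 1 lower (median 1.06), beside 5.4% and 1.23% of coding features. The transporter gene ght1 (chromosome III, 232288 to 235289) held 107 reads in wild type, 186 in swd22, 190 in ssu72, 88 in the reference and 725 in clr4, at 2.18 (1.89 to 2.49). The high-affinity transporter gene ght5 held 2385, 12406, 3543, 1001 and 15686, at 2.14 (2.08 to 2.20), where swd22 lay close to clr4. Clr4 thus stood alone for ght1 but not for ght5. Of 9 glucose-repressed genes 4 were higher and none lower, with a median of 0.57, beside the same shares of coding features. The glycerol dehydrogenase gene gld1 held 380, 695, 539, 249 and 3996 reads, at 2.81 (2.66 to 2.97), and the dihydroxyacetone kinase gene dak2 4027, 6500, 9883, 1105 and 21462, at 1.83 (1.79 to 1.88). In both, clr4 was at least 2-fold above each other library. The invertase gene inv1 at 3.72 (3.53 to 3.92) and the gluconeogenic gene fbp1 at 2.98 (2.74 to 3.23) were high in all 3 mutants, with 228 and 148 reads in wild type, 95 each in the reference and 1135 to 4484 in the mutants.

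Other metabolic genes shared the clr4 pattern. The predicted glucose-6-phosphate dehydrogenase gene zwf2 (chromosome III, 239463 to 241999) held 258 reads in wild type, 250 in swd22, 279 in ssu72, 102 in the reference and 1759 in clr4, at 2.19 (2.0002 to 2.38). The transcription factor gene rsv1 held 32, 46, 63, 12 and 188, at 1.97 (1.43 to 2.56). For cum1, a conserved fungal protein gene, the numbers were 247, 900, 1038, 195 and 3752, at 3.35 (3.16 to 3.54). The other mutants lay above wild type in cum1 and close to it in zwf2. Further genes at least 2-fold above all other libraries encode a predicted pyruvate decarboxylase (pdc202, 2.10), a phosphoketolase family protein (SPBC24C6.09c, 2.77), a predicted succinate-semialdehyde dehydrogenase (SPAC139.05, 1.45) and a predicted cytochrome b2 lactate dehydrogenase (SPAPB1A11.03, 1.43).

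The upstream window of zwf2 is printed because it holds the 6-base element TGACGT, known as the binding string of the stress factor Atf1 with Pcr1. It runs 5′ to 3′ on the minus strand, with capitals on the match, which starts 131 bases before the feature.
zwf2 upstream, chrIII:242000-242299: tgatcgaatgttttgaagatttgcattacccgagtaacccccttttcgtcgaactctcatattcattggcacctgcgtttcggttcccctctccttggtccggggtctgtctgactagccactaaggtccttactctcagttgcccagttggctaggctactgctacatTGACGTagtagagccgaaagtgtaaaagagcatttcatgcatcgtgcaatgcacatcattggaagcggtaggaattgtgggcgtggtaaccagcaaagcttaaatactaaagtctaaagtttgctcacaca
The element, searched as TGACGT or ACGTCA, lay in 272 of 5123 windows (5.31%). It lay in 8 of 38 windows of coding genes in which clr4 stood at least 2-fold above all other libraries (21.1%). It also lay in 23 of 268 windows of genes higher than wild type (8.58%) and in 4 of 77 chaperone windows (5.19%). The 8 genes above all other libraries were zwf2, pho1, oca2, pdc202, SPAC869.09, SPBC660.05, SPBPB7E8.02 and SPCC417.16. The printed window of ssa1 held no match to TGACGT or ACGTCA, and that of zwf2 held none to the heat shock element.

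**Figure D4:**
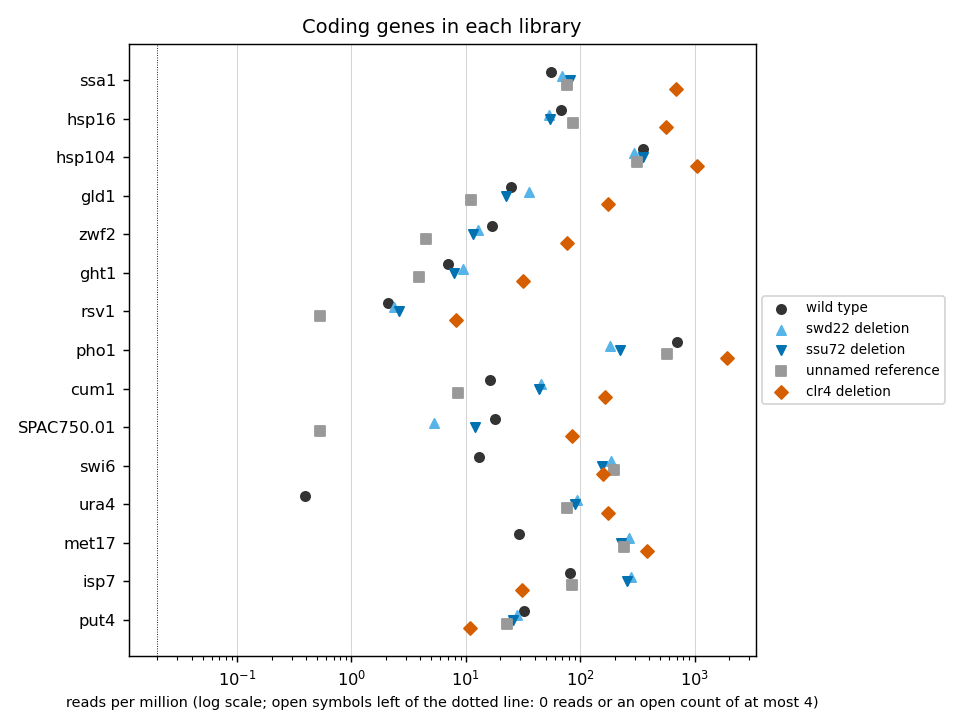
RPM (log scale) of coding genes in each of the 5 libraries. The library labelled clr4 deletion lies rightmost from ssa1 to SPAC750.01 and leftmost for isp7 and put4, while for swi6, ura4 and met17 it is the library labelled wild type that lies apart, on the left.

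Phosphate genes parted from one another. Acid phosphatase is encoded by pho1 (chromosome II, 4446373 to 4449053), which held 10669 reads in wild type, 3554 in swd22, 5367 in ssu72, 13053 in the reference and 44026 in clr4, a difference of 1.47 (1.43 to 1.50). It was the only one of 6 phosphate genes past 2-fold. The transporter genes pho84 and tgp1 stood at 0.52 (0.49 to 0.56) and -0.47 (-0.56 to -0.37). Iron genes went both ways, with 2 of 13 higher and 1 lower, beside 5.4% and 1.23% of coding features. The heme uptake gene shu1 was at 1.47 (0.58 to 2.47), with 54 against 13 reads and 1024 in ssu72, the iron permease gene fip1 at 1.13 (0.88 to 1.39), and the ferric reductase gene frp1 at -1.08 (-1.34 to -0.82). In the zinc list, the metallothionein gene zym1 was at 2.22 (2.05 to 2.39) and the uptake gene zrt1 at -2.11 (-2.14 to -2.08). Clr4 was the highest library in no gene of the iron list or the zinc list. The zrt1 level was apart in wild type, with 37375 reads there, 12914 in clr4 and 5866 to 10568 elsewhere.

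For the coding features with the largest differences, the library labelled wild type lay at or near the lowest level. After ura4, at 8.79 (7.66 to 10.2), came hry1 at 6.05 (5.40 to 6.78) and SPAC869.09 at 5.89 (4.96 to 7.02), which lie 5111 bases apart near the right end of chromosome I. The HHE domain gene hry1 held 19 reads in wild type, 560 in swd22, 758 in ssu72, 3 in the reference and 1879 in clr4, and SPAC869.09 held 9, 179, 215, 13 and 797. Both were low in wild type and the reference, higher in the other mutants and highest in clr4. The predicted beta-glucosidase gene SPBC2G2.17c at 4.64 (4.34 to 4.97), the dehydrogenase genes osr1 at 4.28 (4.10 to 4.46) and SPCC663.08c at 4.16 (4.03 to 4.30), and SPBC1271.08c at 4.10 (3.93 to 4.27) followed. In osr1 the other mutants held 8763 and 13855 reads against 7671 in clr4, 264 in wild type and 165 in the reference. Clr4 was not the highest library for SPCC663.08c or SPBC1271.08c either.

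Among lower coding genes, the 2 that lay at least 2-fold below every other library encode an iron-dependent oxygenase family protein and a predicted proline permease. The first, isp7 (chromosome I, 4179961 to 4183074), held 1254 reads in wild type, 5428 in swd22, 6195 in ssu72, 1928 in the reference and 707 in clr4, a difference of -1.41 (-1.54 to -1.27). For put4 the numbers were 491, 549, 618, 519 and 246, a difference of -1.58 (-1.80 to -1.35). Of 12 ammonium and amino acid uptake genes, 1 was higher and 3 lower (median -0.43). Over all coding features 5.4% were higher and 1.23% lower, which also stands beside the cell separation genes below. The oligopeptide transporter gene isp4 stood lowest at -2.62 (-2.76 to -2.50), where wild type held 2501 reads and the other 4 libraries 606 to 1042. Cell separation genes had a median of -0.76, with none of 14 higher and 3 lower, namely the glucanase genes eng1 at -1.45 (-1.49 to -1.41) and agn1 at -1.31 (-1.38 to -1.24), and the anaphase activator gene slp1 at -1.04 (-1.10 to -0.98). In 13 of the 14 the library labelled wild type was the highest of all 5. Flocculin genes had 3 of 8 lower, beside 1.23% of coding features. They were led by pfl7 at -3.14 (-3.49 to -2.81), with 503 reads in wild type, 213 in swd22, 35 in ssu72, 358 in the reference and 85 in clr4.

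Mating-type markers also set the library labelled wild type apart. Of 6 genes of M cells, 5 were lower and none higher, with a median of -1.23. Among coding features 1.23% were lower and 5.4% higher. The M-factor gene mfm2 held 1864 reads in wild type, 1232 in swd22, 645 in ssu72, 590 in the reference and 1188 in clr4, at -1.23 (-1.34 to -1.12), and the receptor gene mam2 held 495, 413, 284, 125 and 299, at -1.31 (-1.52 to -1.10). Against the reference the median of the M genes was 0.69. The P-factor gene map2 was the only one of 3 P cell genes past 2-fold, at 1.10 (0.88 to 1.32), with map3 at 0.09 (-0.18 to 0.36) and sxa1 at -0.39 (-0.43 to -0.35). Summed over the M list, levels were 402.6 RPM in wild type and 143.4 to 259.2 in the other 4 libraries, and over the P list 729.3 and 474.7 to 651.5. No marker of either type was at 0. In bulk RNA, fewer cells of a type and less RNA per cell cannot be told apart.

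**Figure D5:**
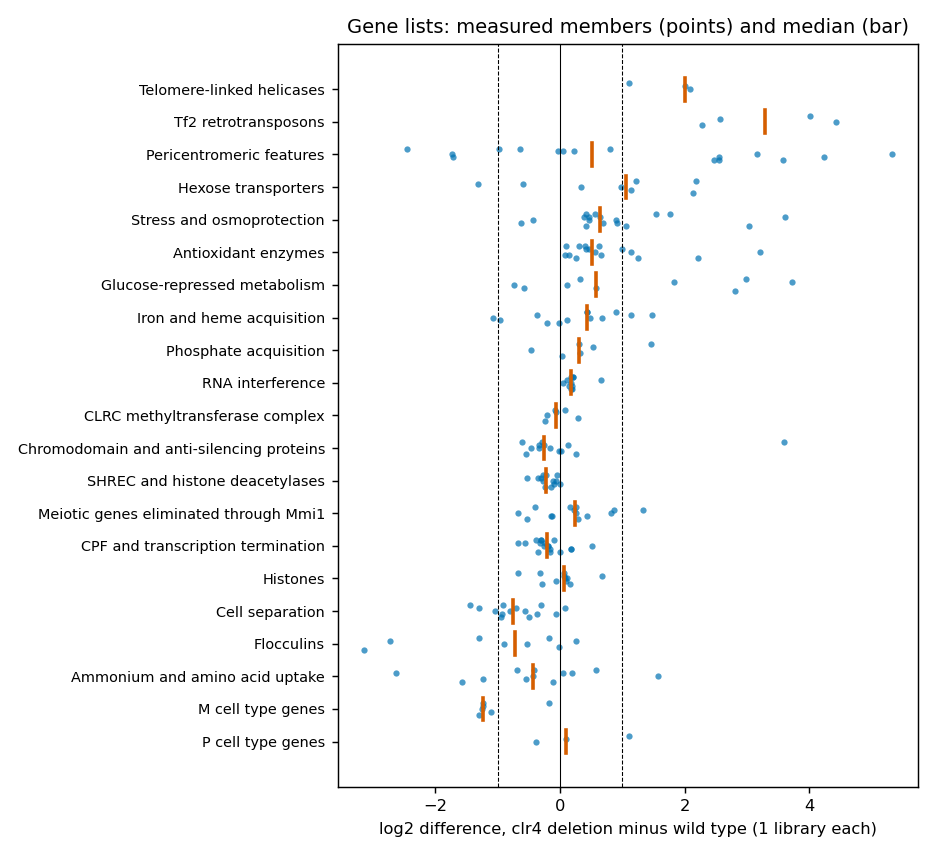
Log2 difference (clr4 minus wild type) of each measured member (points) of the gene lists, with a bar at the list median and dashed lines at 2-fold. Helicase and Tf2 members all lie past 2-fold on the higher side, the silencing machinery lies near 0 apart from swi6 at 3.59, and 5 of 6 M cell genes lie past 2-fold on the lower side.

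Noncoding RNAs were more often higher than coding ones. Of 577 measured SPNCRNAs of 830, 210 were at least 2-fold higher and 11 lower (median 0.72), beside 9.27% and 2.24% of all measured features. Some reached the read minimum through clr4, the deeper library, alone, among them SPNCRNA.182 (31 reads against 0 in wild type) and SPNCRNA.1540 (50 against 1). Such features could not come out lower, so the count leans towards higher by the choice of features. Antisense features had 81 higher and 10 lower of 612 (median 0.27). In 290 of the 577 SPNCRNAs the library labelled wild type was the lowest of the 5, and in 149 that labelled clr4 deletion was the highest. Against the reference 143 of 592 were higher and 49 lower, around a median of 0.18. A low wild-type library was thus more frequent in this class than a high clr4 library. SPNCRNA.863 (chromosome I, 2939138 to 2940765) was a case of the second kind, with 121 reads in wild type, 357 in swd22, 674 in ssu72, 66 in the reference and 3179 in clr4, at 4.14 (3.87 to 4.41). SPNCRNA.1255 was one of the first kind, with 8 reads in wild type, 55 in the reference and 409 to 491 in all 3 mutants, at 5.10 (4.10 to 6.32).

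Antisense features and the genes opposite them were compared where both were measured. Of the 73 genes opposite an antisense feature at least 2-fold higher, 13 were higher and 1 lower (median 0.30.) Of the 437 genes opposite an antisense feature short of 2-fold, 27 were higher and 6 lower (median -0.02.) Of the 10 genes opposite a lower one, none was higher and 1 was lower. The strand setting of the counting is not stated. How far reads of 1 strand entered the count of the other was not tested, so these counts were not read further.

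Nuclear transfer RNA genes were more often lower than higher. Of 77 measured of 169, 1 was higher and 56 lower (median -1.43), and wild type was the highest of the 5 libraries in 58. The shares over all measured features were 9.27% higher and 2.24% lower. Of 85 nuclear tRNA genes with at least 10 reads in any library, 50 had no 50-base window found once. Against the reference their median was 0.14. Mitochondrial tRNA genes went the other way, with 12 of 25 higher, none lower and a median of 0.96. Over both kinds together, 102 measured genes had a median of -1.19. The leucine tRNA gene SPBTRNALEU.09 (chromosome II, 3209139 to 3209217, minus strand) was the lowest, with 604 reads in wild type, 32 in swd22, 40 in ssu72, 2 in the reference and 15 in clr4, a difference of -5.91 (-6.76 to -5.18). Its sequence is shown because it occurs 2 times in the assembly, so that reads inside it have more than 1 place.
SPBTRNALEU.09: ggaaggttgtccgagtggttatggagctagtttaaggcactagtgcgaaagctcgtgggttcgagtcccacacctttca
The 3 tRNA genes that lay below all other libraries in clr4 were SPCTRNAGLN.06, at -1.92 (-2.61 to -1.27), SPATRNAMET.02, at -1.54 (-1.96 to -1.13), and SPBTRNAMET.04, at -1.33 (-1.76 to -0.91).

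Some features past 2-fold lay side by side along the chromosomes. At least 3 measured neighbours were past 2-fold in the same direction in 22 runs of higher and 3 runs of lower features. With 9.27% of features higher and 2.24% lower, the number of runs that would arise without clustering was not tested. Neighbours include antisense features beside their own gene, so a run can hold 1 locus more than once. The longest held 6 features each. In the run on chromosome II from 60553 to 71310, 50 to 75 kb from the left end, clr4 was the highest library in 2 features, among them SPBPB21E7.02c, with 81 reads in clr4, 53 in ssu72, 37 in swd22, 3 in wild type and 1 in the reference. The run on chromosome III from 44814 to 50142 included hsp3101 and its antisense feature, with clr4 highest in 3. Both centromeric groups, from 3761023 to 3787136 on chromosome I and from 1602773 to 1641543 on chromosome II, were runs of 3 in which clr4 was highest throughout. By chromosome, 280 of 2910 measured features were higher on I, 159 of 2315 on II and 141 of 1177 on III, and 55, 68 and 21 were lower.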

How the data were processed

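RNA of 4 fission yeast libraries, 1 for each genotype, was grouped by the genotype label. The deposited tables give, per the file headers, a log2 ratio (FC) and a p-value for each feature against 1 reference library, shared by all files and left unnamed in them. Per the labels' protocols, RNA came from a yeast purification kit, libraries from ScriptSeq v2, a kit that keeps the strand, and reads from a NextSeq 500. The submitters' processing notes name Trimmomatic and STAR and no version of either. Nothing in the sources used here gives the genome build, the counting program or its strand setting.

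Whole reads were recovered from both deposited values together, as the counts whose ratio and sampling p-value match them. They were recovered with both values for 6563 features and with the ratio alone for 90, while 362 had a ratio of 0 in every file. All low-count estimates (1401 to 1609 a file) lay within 0.05 of a whole number. A count of 0 entered as 0.5 reads. Where a ratio is set to 0, the count can be anything up to 4 reads, is called open here and gets no fold. Differences keep the deposited scale, and the deposited p-values were not used as tests of genotype. Features with at least 10 reads in the higher library were measured, a call is a 2-fold difference, intervals are 95% Clopper-Pearson intervals of the share of reads, and bounds against 0 reads use a floor of 3 reads per library. With 1 library a genotype no p-value was computed. Depth was 15281348 to 24003686 reads, with 6276 to 6423 features at 10 reads or more.

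Coordinates are those of the files. Of 169 nuclear tRNA features, 168 were found by name in RefSeq assembly ASM294v3, all with the same start and end, and from it sequences, descriptions and windows found once (50 bases) were taken. Upstream windows are the 300 bases before a feature's start in its direction. Scripts used Python 3.11.15, numpy 2.4.6, pandas 2.3.3 and scipy 1.17.1, and the recovery was tested on simulated data. Members and gene lists were chosen with earlier results of these data known, and the chaperone list and the list of mug and meu genes were made after values were seen. Named genes are swi6 and clr4, the 10 coding, 5 SPNCRNA, 3 antisense and 2 other RNA features with the largest difference each way whose interval lies past 2-fold, up to 4 list members past 2-fold, heterochromatin list members, and the 6 features each way in which clr4 stands farthest from all other libraries. Further genes named (among them zwf2, rsv1, cum1, SPAC750.01, SPAC750.05c, SPAC186.05c, SPAC212.09c, SPNCRNA.811, SPNCRNA.863, the chaperones other than ssa1, hsp16 and hsp104, the genes holding TGACGT, list members short of 2-fold and members of runs) were chosen after their values were seen.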

Additional observations from a re-analysis of the deposited data

How the results depend on the processing

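No paired analysis was possible because each genotype had 1 library and the labels carry no replicate numbers. For the same reason no library could be left out within a group, and no difference between genotypes has an error beyond counting. The counts of 597 higher and 144 lower features stayed within 1.5 times their size with no read minimum, a minimum of 30 reads, a minimum on the mean of all 5 libraries, centring on the protein-coding median (a shift of -0.03), scaling to total reads, 1 read added to every count, and the unnamed reference as the control. With the whole counting interval past 2-fold they were 308 and 84. Depth limits the smallest counts, since with 0 reads on one side an interval has no far end, and open counts bar a fold for 2 higher and 3 lower features.

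Values moved most with the unnamed reference in place of the library labelled wild type, where 22 of 111 named differences reversed, 63 moved and 26 stayed, and 2 of 43 list medians reversed, 29 moved and 12 stayed. List medians also moved in 2 cases with a minimum of 30 reads and in 1 with no minimum, and 2 differences moved with centring. Every reversal came with the reference, and the cause was not tested. The list medians became 0.69 for the M cell genes and 0.32 for nuclear and mitochondrial tRNA genes together. Differences below 0 against wild type became 1.23 for snR10, 1.13 for zrt1, 0.18 for SPNCRNA.1606, 0.065 for SPBPB7E8.01, 1.16 for SPNCRNA.287, 1.58 for ght7, 1.10 for SPNCRNA.1626, 0.63 for frp1, 0.99 for prl15, 2.90 for SPBTRNALEU.09, 1.25 for SPNCRNA.601 and 0.27 for pfl9. The M cell genes mfm1, mfm2, mfm3 and mam2 became 2.36, 1.0003, 0.39 and 1.25. Differences above 0 became -0.91 for SPMITTRNAILE.01, -0.58 for wtf25, -0.66 for snu4, -0.31 for swi6, -0.55 for fip1 and -0.86 for sod1.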

Other observations

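The wtf genes, a family of spore killers and their antidotes, were higher in the library labelled clr4 deletion than in that labelled wild type in 12 of 24 measured cases, with none lower and a median of 0.98. Among all measured features 9.27% were higher and 2.24% lower. The median of the wtf genes was 1.47 against the unnamed reference. The member wtf20 held 38 reads in wild type, 302 in swd22, 502 in ssu72, 41 in the reference and 378 in clr4, a difference of 2.73, and wtf22 held 28, 299, 321, 37 and 239, a difference of 2.51. All 3 mutants thus lay above wild type and the reference in both. Over the 25 members with at least 10 reads in a library, the median share of 50-base windows found once was 63.2%. Among 118 measured mug and meu genes, named for their expression in meiosis, 17 (14.4%) were higher and 1 (0.847%) lower (median 0.19), beside 5.4% and 1.23% of all protein-coding features.

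Transcripts of the mitochondrial genome were higher in part. The median over 35 measured was 0.88. Of these, 14 were at least 2-fold higher and none lower, beside 9.27% and 2.24% of all measured features. They include the 12 tRNA genes given above and the ATP synthase genes atp9 at 1.21 and atp6 at 1.09, while both ribosomal RNAs stood below 0. The library labelled wild type was the lowest of the 5 in 22 of the 35, and the median against the reference was 0.54. Cytosolic ribosomal protein genes had none of 141 past 2-fold and a median of -0.17, against -0.62 with the reference as control, where 20 were at least 2-fold lower. Small nucleolar RNAs had a median of 0.06 over 21 measured members, of which 1 was lower.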
